A study of Caenorhabditis elegans with 11 samples.

Results

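The 10 genes described here encode chaperones, disulfide isomerases and stress sensors of the endoplasmic reticulum (ER) of Caenorhabditis elegans. They were taken by name as hsp-3, hsp-4, crt-1, cnx-1, pdi-1, pdi-2, ire-1, pek-1, atf-6 and xbp-1. Each name has a single row among the 45461 rows of the count table, of which 26569 hold a read. All 10 were among the 14773 genes that reached a sum of 100 counts over all 11 libraries, which were the genes tested. The genes lie on chromosomes X (hsp-3, pdi-2, pek-1 and atf-6), II (hsp-4 and ire-1), III (xbp-1, cnx-1 and pdi-1) and V (crt-1).

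Transcripts were measured by RNA-seq of total RNA from whole adults of the wild-type strain N2 (var. Bristol). Every group was kept on plates with 5 mM 2-deoxy-D-glucose (DOG), an inhibitor of glucose use, from the end of the last larval stage (L4) onward. The groups were worms of 1, 5 and 10 days after L4, with 3 libraries each, and of 20 days, with 2 libraries. Each library pooled many worms, fewer at the older ages, on heat-inactivated bacteria, and offspring were washed away daily. Worms without DOG were not analysed here, so that age and the time on DOG cannot be told apart. The reads counted on genes numbered 23648292 to 58499127 per library. All 41 markers of germline, intestine, muscle, hypodermis and neurons that were looked up had counts at every age, as whole worms should. The comparisons ask how the machinery for protein folding in the ER changes as worms age under impaired glycolysis.

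Secreted and membrane proteins are folded in the ER. Hsp70 chaperones of the BiP family bind unfolded chains there, the lectins calreticulin and calnexin hold glycoproteins, and protein disulfide isomerases form and rearrange disulfide bonds. When unfolded proteins accumulate, 3 sensors in the ER membrane start the unfolded protein response (UPR), which in worms raises the expression of chaperone genes and slows translation. In C. elegans the sensor IRE-1 cuts an intron out of the xbp-1 transcript, and the spliced transcript encodes the active transcription factor.

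Levels are given as CPM, the counts of a gene divided by all counts on genes of its library and multiplied by 1e6. Where genes are compared with each other, RPKM values are given, which are CPM per kilobase of annotated exon. Log2 changes are those of edgeR's quasi-likelihood test with TMM normalization, with all ages in a single fit, and always stand for the older over the younger age. A gene was called changed at a Benjamini-Hochberg adjusted p under 0.01 over all genes tested. TMM, which aligns the bulk of genes between libraries, left a median log2 change over all genes of -0.01 between 20 and 1 days, while scaling to library size alone put this median at 0.14. Upper-quartile factors put the median at -0.133 between 5 and 1 days and at 0.085 between 10 and 5 days. Small changes between any of the ages therefore depend on the scaling. Since the RNA came from whole worms, a change in the share of a tissue cannot be told apart from a change within each cell. This holds for rises and falls alike.

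**Figure D1:**
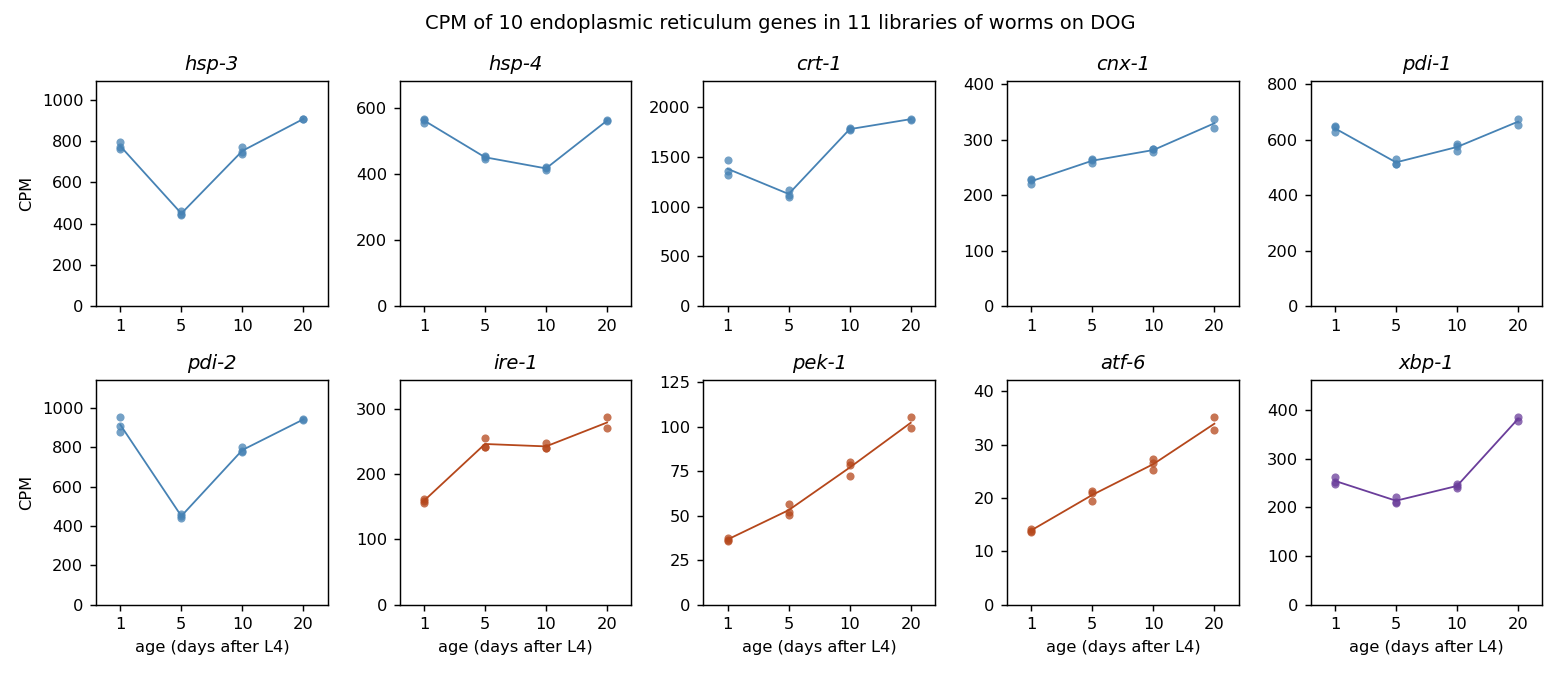
CPM (vertical axes, from 0) of the 10 genes against age in days after L4 (horizontal axes). Points are libraries and lines join the means. Blue marks chaperones and isomerases, orange the sensors and purple xbp-1. The libraries of hsp-3 lie at 441 to 461 CPM at 5 days and at 738 CPM or more at every other age, whereas pek-1 and atf-6 are higher at each older age.

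Between 5 and 1 days all 3 sensor genes and cnx-1 were called higher, and the other 5 chaperone and isomerase genes and xbp-1 were called lower, where 34.5% of all genes were called higher and 34.0% lower. Between 20 and 1 days the 3 sensor genes, xbp-1, crt-1 and cnx-1 were called higher and hsp-4 lower, where 38.5% of all genes were called higher and 38.0% lower. The remaining genes, hsp-3, pdi-1 and pdi-2, were not called between these ages. Every one of the 10 genes was called changed when the ages were tested together, as were 91.4% of all genes, so that this count by itself does not set these genes apart. Together they took 0.482 to 0.513% of the counted reads in 1-day worms, 0.375 to 0.384% in 5-day worms, 0.515 to 0.523% in 10-day worms and 0.604 to 0.613% in 20-day worms.

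The sensor gene pek-1 encodes the worm counterpart of PERK, a kinase that slows translation by modifying the initiation factor eIF2alpha. It had 36.6, 35.9 and 37.5 CPM in the libraries at 1 day, 56.8, 52.3 and 50.3 CPM at 5 days, 78.3, 72.5 and 80.2 CPM at 10 days, and 105 and 99.0 CPM at 20 days. No library overlapped with those of another age, and each older age was higher. Between 20 and 1 days the log2 change was 1.33 (edgeR, SE 0.05, adjusted p = 1.05e-14), a 2.51-fold rise and the largest among the 10 genes. It rose in every interval, by 0.49 between 5 and 1 days, 0.53 between 10 and 5 days and 0.30 between 20 and 10 days on the log2 scale.

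The gene atf-6 encodes a transcription factor held in the ER membrane, which in mammals is cut loose under stress. It had the lowest level of the 10 genes, with 14.3, 13.7 and 13.9 CPM at 1 day, 21.4, 19.5 and 20.9 CPM at 5 days, 25.3, 27.3 and 26.5 CPM at 10 days, and 35.2 and 32.7 CPM at 20 days. These values rest on 337 to 1915 counts per library, and again the ages did not overlap. The log2 change between 20 and 1 days was 1.13 (edgeR, SE 0.06, adjusted p = 8.35e-13). The step between 20 and 10 days was the smallest, with 0.26 (SE 0.05), and without replicate 1 of the 20-day worms it was 0.22 with an adjusted p of 0.0104 from edgeR, just past the threshold.

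The third sensor gene, ire-1, rose early and then moved little. It had 159, 156 and 162 CPM at 1 day, 255, 241 and 242 CPM at 5 days, 240.0, 239 and 247 CPM at 10 days, and 287 and 271 CPM at 20 days. The libraries of 5 and 10 days overlapped, and all libraries of 1 day lay below them. With TMM-scaled CPM values 20 and 5 days overlapped too, at 254 to 267 and 244 to 255. Between 5 and 1 days its log2 change was 0.59 (edgeR, SE 0.03, adjusted p = 1.84e-11). Between 10 and 5 days it was -0.03, with a 95% interval of -0.10 to 0.04 (edgeR, adjusted p = 0.52). The change between 20 and 10 days, 0.10, did not pass the threshold in the single fit with TMM (edgeR, adjusted p = 0.027). It did with library size alone (0.20, edgeR, adjusted p = 2.09e-04) and with upper-quartile factors (0.13, adjusted p = 0.0083). With TMM it passed in a fit of only these 2 ages (0.11, edgeR, adjusted p = 0.0051). It also passed over genes with at least 100 counts in every library (0.16, edgeR, adjusted p = 5.15e-04), but not with DESeq2 (0.06, adjusted p = 0.12).

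The gene xbp-1, the transcription factor gene whose transcript IRE-1 cuts, was lower at 5 days than at 1 day, when ire-1 was higher. It had 263, 248 and 252 CPM at 1 day, 209.9, 209 and 221 CPM at 5 days, 243, 240.5 and 248 CPM at 10 days, and 385 and 378 CPM at 20 days. The libraries of 20 days stood far above all others, and those of 5 days were the lowest. Between 5 and 1 days xbp-1 fell by 0.29 on the log2 scale (edgeR, SE 0.03, adjusted p = 2.91e-07) and between 20 and 10 days it rose by 0.54 (SE 0.04, adjusted p = 2.71e-10), the largest rise of the 10 genes in that interval. Counts per gene do not separate the spliced from the unspliced transcript, so the active form was not measured.

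**Figure D2:**
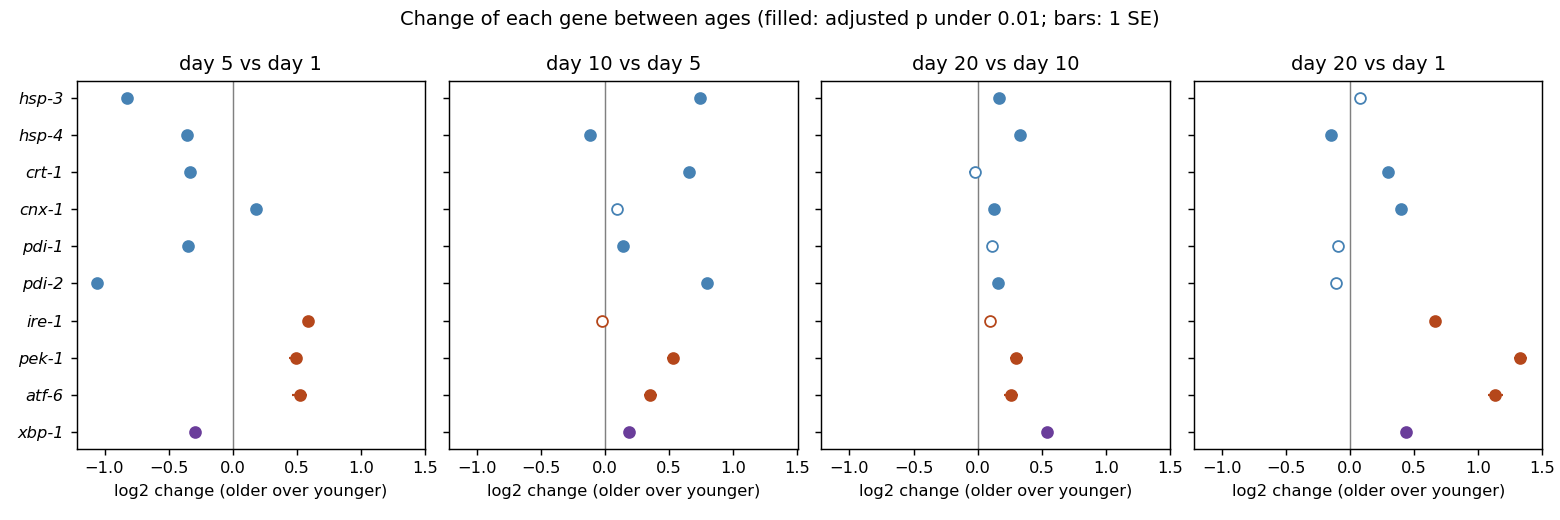
Log2 change (horizontal axes, older over younger age) of each gene in 4 comparisons of ages, with bars of 1 SE that are mostly hidden by the points. Filled points are called at an adjusted p under 0.01 and open points are not. At 5 days against 1 day the sensors lie between 0.49 and 0.59, and pdi-2 lies lowest at -1.06.

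The genes hsp-3 and hsp-4 both encode BiP-family Hsp70 chaperones of the ER, and hsp-4 is the gene most used in worms to report UPR activity. They are close paralogues, so that short reads from the stretches they share may be split between them or left out, and their separate levels are uncertain to that extent. For hsp-3 the libraries of 1 day had 794, 763 and 769.6 CPM, those of 5 days 461, 441 and 445 CPM, those of 10 days 769.7, 749 and 738 CPM, and those of 20 days 909 and 906 CPM. The dip at 5 days was far outside the spread of the libraries, while 1 and 10 days overlapped. With TMM-scaled CPM values 10 and 1 days did not overlap, at 738 to 771 and 798 to 806. Between 5 and 1 days hsp-3 fell by 0.83 on the log2 scale (edgeR, SE 0.03, adjusted p = 1.28e-13), and between 10 and 5 days it rose by 0.74 (SE 0.03, adjusted p = 1.81e-12). Its log2 change between 20 and 1 days was 0.08, with a 95% interval of -0.003 to 0.16 (edgeR, adjusted p = 0.068). The step between 20 and 10 days (0.17, edgeR, adjusted p = 8.20e-04) was lost without replicate 2 of 20 days (adjusted p = 0.0116). With library size alone the change between 20 and 1 days was 0.23 and passed the threshold (adjusted p = 2.71e-05).

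The lowest age of hsp-4 was 10 days, not 5. It had 569, 556 and 566 CPM at 1 day, 457, 452 and 447 CPM at 5 days, 419.9, 412 and 423 CPM at 10 days, and 563 and 564 CPM at 20 days. The libraries of 20 days fell within the range of 1 day on this scale, and those of 5 and 10 days lay below both. With TMM-scaled CPM values the libraries of 20 days, at 523 and 529, lay below those of 1 day, at 577 to 587. The log2 change was -0.36 between 5 and 1 days (edgeR, SE 0.03, adjusted p = 9.64e-09) and 0.33 between 20 and 10 days (SE 0.04, adjusted p = 2.56e-07). The small fall between 10 and 5 days (-0.12, edgeR, adjusted p = 0.0044) was lost when replicate 2 of 5 days or any replicate of 10 days was left out, with adjusted p values of 0.0124 to 0.026, and with upper-quartile factors it was -0.03. Between 20 and 1 days hsp-4 was called lower with TMM (-0.15, adjusted p = 9.46e-04), but library size alone gave -0.001 (edgeR, adjusted p = 0.98), and without replicate 1 of 20 days the call was lost at -0.14 (adjusted p = 0.0181).

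Calreticulin, encoded by crt-1, and calnexin, encoded by cnx-1, are lectin chaperones that also bind calcium. The libraries of crt-1 had 1469, 1319 and 1359 CPM at 1 day, 1095, 1119 and 1173 CPM at 5 days, 1793, 1773 and 1780.2 CPM at 10 days, and 1889 and 1877 CPM at 20 days. The level was thus lowest at 5 days, and the 2 older ages lay above both younger ones. Between 10 and 5 days crt-1 rose by 0.65 on the log2 scale (edgeR, SE 0.04, adjusted p = 9.80e-11). Between 20 and 10 days no change was found with TMM (-0.02, adjusted p = 0.65), and library size alone turned the sign (0.08, adjusted p = 0.14). Of crt-1 exon bases, 6.57% overlap exons of smut-1 on the opposite strand, and the use of strand in the counting is not stated.

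Alone among the 6 chaperone and isomerase genes, cnx-1 was not lower at 5 days than at 1 day. Its libraries had 229, 219 and 227 CPM at 1 day, 264, 264 and 258 CPM at 5 days, 284, 277 and 283 CPM at 10 days, and 338 and 321 CPM at 20 days, with no overlap between ages. The log2 change between 20 and 1 days was 0.40 (edgeR, SE 0.04, adjusted p = 5.44e-09). The steps between ages were small and depended on the settings. The rise between 5 and 1 days was 0.18 (adjusted p = 7.21e-05), but 0.06 with upper-quartile factors (adjusted p = 0.10) and 0.05 when only genes with at least 100 counts in every library were used (adjusted p = 0.12). The rise between 20 and 10 days, 0.12 (adjusted p = 0.0053), was lost without any replicate of 10 days or without replicate 1 of 20 days, with adjusted p values of 0.0122 to 0.087, and with DESeq2 (adjusted p = 0.0134).

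The protein disulfide isomerase gene pdi-2, whose product in worms also serves as a subunit of the enzyme that hydroxylates prolines of cuticle collagen, had the deepest dip. It had 952, 879 and 909.6 CPM at 1 day, 449.7, 442 and 459 CPM at 5 days, 800.3, 781 and 774 CPM at 10 days, and 939 and 942 CPM at 20 days. The libraries of 20 days lay within the range of 1 day on this scale, but with TMM-scaled CPM values they lay below it, at 873 and 884 against 929 to 965. Between 5 and 1 days pdi-2 fell by 1.06 on the log2 scale (edgeR, SE 0.04, adjusted p = 4.51e-15), to 0.48 of its level at 1 day, and between 10 and 5 days it rose by 0.80 (SE 0.04, adjusted p = 8.06e-13). Of all genes tested, 16.7% had a lower log2 change than pdi-2 between 5 and 1 days and 90.8% between 10 and 5 days. The later rise between 20 and 10 days (0.16, edgeR, adjusted p = 0.0016) was lost without replicate 3 of 10 days or without either replicate of 20 days, with adjusted p values of 0.0102 to 0.0214.

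The other isomerase gene, pdi-1, moved the same way but less. It had 648, 626 and 647 CPM at 1 day, 513, 511 and 529 CPM at 5 days, 578, 583 and 558 CPM at 10 days, and 675 and 653 CPM at 20 days. Its log2 change was -0.35 between 5 and 1 days (edgeR, SE 0.04, adjusted p = 4.66e-08) and 0.14 between 10 and 5 days (SE 0.04, adjusted p = 0.0022). The second of these was no longer called without replicate 2 of 5 days or without replicate 1 or 2 of 10 days, with adjusted p values of 0.0103 to 0.0186. Neither isomerase was called changed between 20 and 1 days, with log2 changes of -0.10 for pdi-1 (edgeR, adjusted p = 0.032) and -0.11 for pdi-2 (adjusted p = 0.018), and with library size alone both signs turned, to 0.05 for pdi-1 and 0.04 for pdi-2. DESeq2 called both lower, with -0.11 for pdi-1 and -0.12 for pdi-2, and edgeR called pdi-2 lower (-0.13) without replicate 2 of 1 day.

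**Figure D3:**
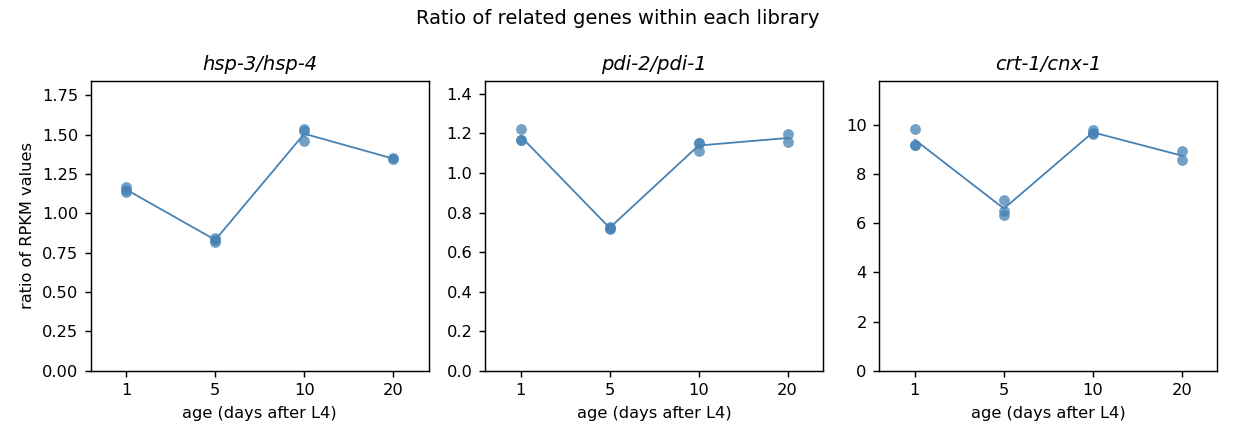
Ratio of the RPKM values of related genes within each library (vertical axes, from 0) against age in days after L4. Points are libraries and lines join the means. In each of the 3 pairs the libraries of 5 days lie below all others, with hsp-3 over hsp-4 at 0.816 to 0.846 and at 1.14 or more at every other age.

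A ratio of 2 genes within a library does not depend on the scaling between libraries. The ratios were formed after the levels had been seen and are a description. The RPKM ratio of hsp-3 to hsp-4 was 1.15 ± 0.014 in 1-day worms, 0.832 ± 0.015 in 5-day worms, 1.51 ± 0.039 in 10-day worms (SD, n = 3 each) and 1.35 ± 0.0062 in 20-day worms (SD, n = 2). Per exon length the order of these chaperone genes was thus turned round at 5 days, when hsp-4 was the higher. In mean CPM the 2 genes were close at that age, with 449 for hsp-3 and 452 for hsp-4. The order at 5 days therefore rests on their exon lengths of 2666 and 2232 bases and on how shared reads were split. For the isomerases the order was also turned round at 5 days. The ratio of pdi-2 to pdi-1 was 1.19 ± 0.030 in 1-day worms, 0.722 ± 0.0048 in 5-day worms, 1.14 ± 0.022 in 10-day worms and 1.18 ± 0.030 in 20-day worms. The ratio of crt-1 to cnx-1 was 9.39 ± 0.37 in 1-day worms, 6.59 ± 0.33 in 5-day worms, 9.69 ± 0.088 in 10-day worms and 8.74 ± 0.28 in 20-day worms.

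Counted over the 10 genes, 4 were called higher and 6 lower between 5 and 1 days, against 34.5% and 34.0% of all genes. Between 10 and 5 days, 7 were called higher and 1 lower, against 23.7% and 24.6% of all genes. Between 20 and 10 days, 7 were called higher and 0 lower, against 28.3% and 28.2% of all genes by edgeR. The 3 not called were ire-1, crt-1 and pdi-1, and 0 genes were lower at an unadjusted p under 0.05 or by DESeq2. The number called higher was 9 with library size alone and with upper-quartile factors, as ire-1 and pdi-1 were called too. It was also 9 with at least 100 counts in every library, fits of 2 ages and a threshold of 0.05. With DESeq2 and without a count filter it was 6. Without replicate 1 of the 20-day worms the number called higher was 4, since atf-6, cnx-1 and pdi-2 then missed the threshold. Between 20 and 1 days, 6 were called higher and 1, hsp-4, lower, against 38.5% and 38.0% of all genes. The median log2 change of the 10 genes was -0.31 between 5 and 1 days, 0.27 between 10 and 5 days, 0.16 between 20 and 10 days and 0.35 between 20 and 1 days, beside medians over all genes within 0.02 of 0.

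Monotony was taken as the mean Spearman's rho of a gene's level with age over all 54 choices of 1 library per age. On CPM values 5 of the 10 genes rose monotonically with a mean rho of at least 0.75, against 27.1% of all genes, and 0 fell, against 18.4%. The mean rho was 1.0 for pek-1, atf-6 and cnx-1, 0.84 for ire-1 and 0.80 for crt-1. On TMM-scaled CPM values crt-1 dropped out with 0.60, which left 4 of the 10 genes rising, against 22.6% of all genes, and 0 falling, against 22.1%. The mean rho of hsp-4 was -0.20 on CPM values and those of hsp-3, xbp-1, pdi-1 and pdi-2 lay between 0.20 and 0.49. On TMM-scaled CPM values it was -0.40 for hsp-4, -0.20 for both pdi-1 and pdi-2, and 0.40 for hsp-3 and xbp-1.

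**Figure D4:**
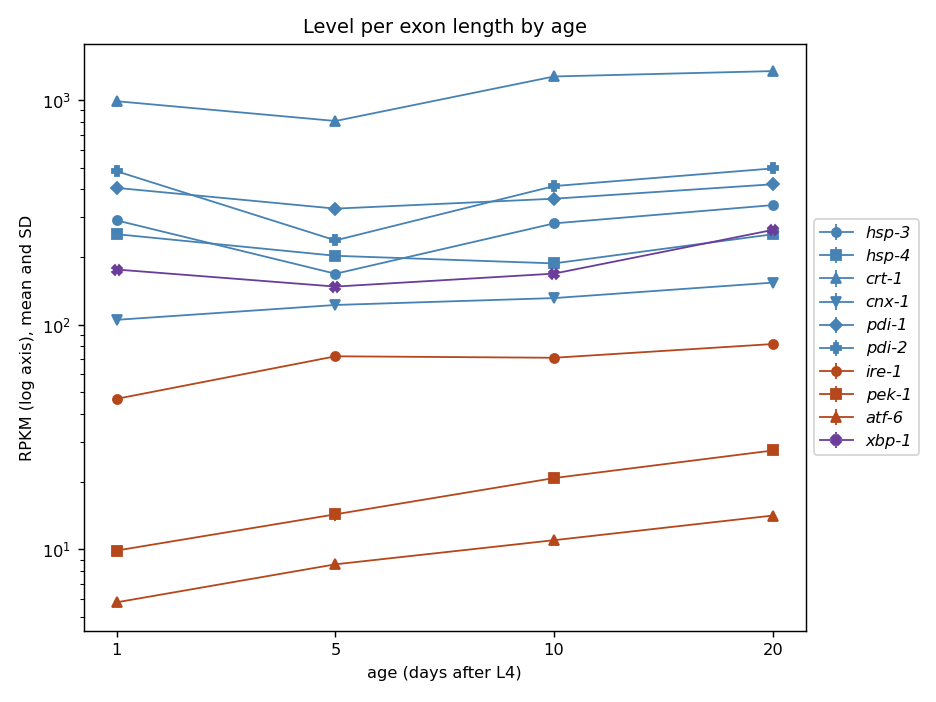
RPKM (vertical axis, log scale) of the 10 genes against age in days after L4, as means with bars of 1 SD that are smaller than most points. The calreticulin gene crt-1 lies highest at every age, between 806 and 1344 RPKM, and atf-6 lowest, between 5.81 and 14.1 RPKM.

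Per exon length, the 10 genes spanned more than 2 orders of magnitude at 1 day. The order at 1 day was crt-1 with 987 ± 55.7 RPKM (SD, n = 3), pdi-2 with 481 ± 19.3, pdi-1 with 406 ± 7.96, hsp-3 with 291 ± 6.06, hsp-4 with 253 ± 3.14, xbp-1 with 176 ± 5.09, cnx-1 with 105 ± 2.30, ire-1 with 46.8 ± 0.87, pek-1 with 9.88 ± 0.22 and atf-6 with 5.81 ± 0.11. No neighbours in this order overlapped in their libraries, at this or any other age. At 5 days pdi-1 stood above pdi-2 and hsp-4 above hsp-3, and at 10 days the order of 1 day was back. At 20 days xbp-1, with 264 ± 3.33 RPKM (SD, n = 2), stood above hsp-4, with 252 ± 0.46. These levels use exon lengths of a later annotation than that of the counts, which bears on the order of genes but not on any change with age.

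Across the 11 libraries the profiles of hsp-3 and pdi-2 were the most alike within the chaperones and isomerases, with a Pearson's r of 0.982 of log2 CPM. Among the sensors, pek-1 and atf-6 had an r of 0.987, and cnx-1 lay close to both (0.978 with pek-1 and 0.979 with atf-6). The r of hsp-4 with ire-1 was -0.46, the lowest of all pairs, and -0.74 with TMM-scaled values, where it was also the lowest. With TMM-scaled values the other r given here lay between 0.982 and 0.985. The libraries share their ages, so these values describe 4 ages more than 11 independent points. Over the other 14763 genes tested, the profiles of TMM-scaled log2 CPM most like that of hsp-3 were those of tag-320 (r = 0.991), F58E10.7 (0.990), egl-3 (0.987), C34C12.5 (0.985) and dve-1 (0.984). The gene tag-320, now named pdi-6, is a further disulfide isomerase gene of the list of folding genes below. Those most like hsp-4 were elo-9 (0.994), aldo-1 (0.994), ketn-1 (0.993), F53B3.6 (0.992) and ttr-31 (0.991). Pearson's r compares the shape of profiles, not the size of their changes. All the genes named as like hsp-4 fell more deeply than it between 1 and 10 days. Mean CPM went from 219 to 66.2 for ketn-1 and from 25.1 to 1.98 for ttr-31, against 564 to 418 for hsp-4.

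Other genes of the ER were taken from 5 lists. The shares of all genes called higher and lower were 34.5% and 34.0% between 5 and 1 days, 23.7% and 24.6% between 10 and 5 days, 28.3% and 28.2% between 20 and 10 days, and 38.5% and 38.0% between 20 and 1 days. Of 13 genes for folding and oxidation in the ER, all tested, 4 were called higher and 6 lower between 5 and 1 days, 11 higher and 1 lower between 10 and 5 days, 11 higher and 0 lower between 20 and 10 days, and 12 higher and 0 lower between 20 and 1 days. In the last 2 of these, 0 were also lower by DESeq2 and at an unadjusted p under 0.05. The counts between 5 and 1 days lay near the shares of all genes. The median log2 change between 20 and 1 days was 0.56. The largest of these rises was that of C14B9.2, a gene with homology to disulfide isomerases, with 46.9 to 48.8 CPM at 1 day, 62.4 to 67.6 in 5-day worms, 101 to 103 in 10-day worms and 149.6 to 160.5 in 20-day worms (log2 change between 20 and 1 days 1.56, SE 0.04, adjusted p = 2.84e-17 from edgeR). The smallest called rise was that of tag-320, with 0.15 (SE 0.04), whose libraries lay at 269 to 289 CPM at 1 day, 172 to 181 in 5-day worms, 263 to 272 in 10-day worms and 342 to 343 in 20-day worms. The gene T05E11.3, now named enpl-1, which encodes the ER form of Hsp90, had a log2 change of 0.56 between 20 and 1 days, and stc-1, an Hsp70-like gene, was the gene not called (-0.01, edgeR, adjusted p = 0.83). Like pdi-2 and hsp-3, tag-320 fell between 5 and 1 days (-0.70) and rose between 10 and 5 days (0.60).

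**Figure D5:**
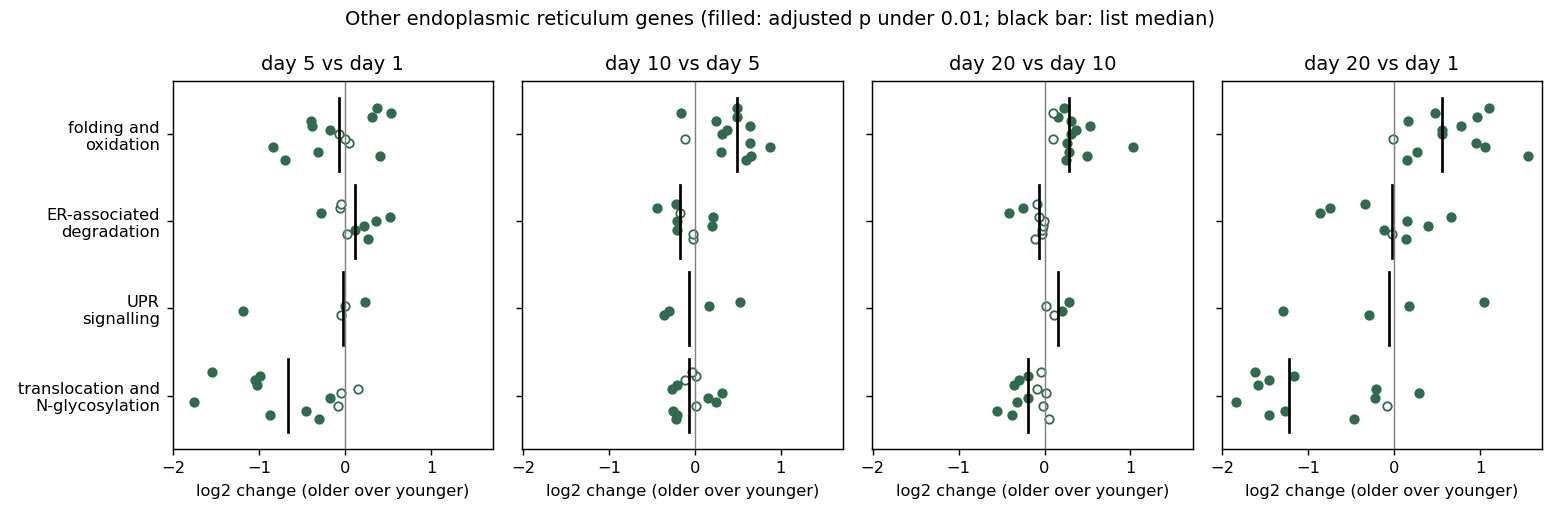
Log2 change (horizontal axes, older over younger age) of the tested genes of 4 of the other lists of ER genes, without the abu genes, in 4 comparisons of ages. Each point is a gene, filled where called at an adjusted p under 0.01, with a black bar at the list median. At 20 days against 1 day the median of folding genes is 0.56 and that of translocation and glycosylation genes is -1.22.

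Genes for translocation into the ER, signal peptide cleavage and N-glycosylation were mostly called lower between 20 and 1 days. Of 12 genes of the translocon, the signal peptidase and the N-glycosylation enzyme, 0 were called higher and 9 lower between 5 and 1 days, where 34.5% and 34.0% of all genes were. Between 10 and 5 days 3 were called higher and 5 lower, with a median of -0.07, where 23.7% and 24.6% of all genes were. Between 20 and 10 days 0 were called higher and 7 lower, where 28.3% and 28.2% of all genes were. Between 20 and 1 days 1 was called higher and 10 lower, with a median of -1.22, where 38.5% and 38.0% of all genes were. For the counts of 0, edgeR gave 1 gene higher between 5 and 1 days and 0 between 20 and 10 days at an unadjusted p under 0.05, and DESeq2 gave 0 in both. The difference from the folding genes was not tested. The log2 changes between 20 and 1 days were uneven across this list. They lay between -1.84 and -1.16 for the translocon genes Y57G11C.15, emo-1 and trap-1 to trap-4 and for dad-1. The signal peptidase genes C34B2.10 (-0.47), Y37D8A.10 (-0.21) and K12H4.4 (-0.09, not called) moved less, as did ostb-1 (-0.22). The largest fall was that of trap-2, encoding a protein of the translocon, with 263 to 298 CPM at 1 day, 80.2 to 89.4 at 5 days, 100.3 to 102 at 10 days and 87.1 in both libraries of 20 days (log2 change between 20 and 1 days -1.84, SE 0.05, adjusted p = 1.97e-17 from edgeR). The rise was that of T22D1.4, now named ribo-1, a subunit of the glycosylation enzyme (0.28, SE 0.04). Of 10 genes of ER-associated degradation, which removes misfolded chains, ufd-1 did not pass the count minimum. Of the 9 tested, 4 were called higher and 4 lower between 20 and 1 days, near the shares of 38.5% and 38.0% of all genes, with log2 changes from -0.86 for npl-4.1 to 0.66 for marc-6.

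Of 4 further genes of UPR signalling, 2 were called higher and 2 lower between 20 and 1 days, beside 38.5% and 38.0% of all genes, and gcn-2 rose and atf-5 fell the most. The gene atf-5, now named atf-4, encodes the transcription factor counterpart of mammalian ATF4, whose translation rises when eIF2alpha is modified. It had 77.1 to 85.2 CPM at 1 day, 35.0 to 38.1 in 5-day worms, 28.6 to 30.4 in 10-day worms and 35.9 to 36.6 in 20-day worms. Its log2 change between 20 and 1 days was -1.29 (edgeR, SE 0.05, adjusted p = 7.43e-15), whereas pek-1 rose by 1.33. The gene gcn-2, whose product modifies the same factor as PEK-1, had 47.1 to 55.8 CPM at 1 day, 56 to 63.7 in 5-day worms, 85.2 to 91.1 in 10-day worms and 114 to 117 in 20-day worms (log2 change between 20 and 1 days 1.04, SE 0.06). Of the abu genes, named for their activation when the UPR is blocked, 3 of 11 reached the count minimum. All 3 were called lower between 20 and 1 days. Of these, abu-8 would not have reached it without the libraries of 1 day, which held 275 of its 310 counts. It had 1 and 2 counts in the libraries of 20 days, against 68 to 104 at 1 day, and no fold is given. The libraries of abu-11 had 6.60 to 6.68 CPM at 1 day and 0.181 to 0.342 CPM at 5 days. They had 0.36 to 0.485 CPM at 10 days and 1.43 to 1.44 CPM at 20 days. Those of abu-10 had 3.6 to 4.4 CPM at 1 day and 0.325 to 0.383 CPM at 5 days. At 10 days abu-10 had 1.2 to 1.64 CPM, and at 20 days 0.584 to 0.957 CPM. Both genes were thus lowest at 5 days, with 5 to 11 counts per library for abu-11 and 9 to 12 for abu-10.

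The tissue markers also moved with age. The summed level of the 14 germline and oocyte markers was 14906 to 15181 CPM at 1 day, 21609 to 22150.0 in 5-day worms, 18236 to 18541 in 10-day worms and 17410.0 to 17587 in 20-day worms. It was thus highest at 5 days, where hsp-3, crt-1, xbp-1 and both isomerases were lowest. The gene hsp-4 was lowest at 10 days, and cnx-1 and the sensor genes were lowest at 1 day. The 6 hypodermis markers summed to 2085 to 2244 CPM at 1 day, 170.3 to 182 in 5-day worms, 98.1 to 103 in 10-day worms and 106 to 109 in 20-day worms. The 6 body wall muscle markers stood at 4438 to 4793, 1051 to 1183, 704 to 748 and 758 to 810.0 CPM at these ages. The 9 intestine markers stood at 14334 to 14806, 13845 to 15794, 8664 to 10592 and 2739 to 2958 CPM, and the 6 neuronal markers at 260.4 to 286, 269 to 275, 342 to 353 and 416 to 421 CPM. None of the markers was at 0 at any age, and their part in the changes of the ER genes was not tested.

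Between 5 and 1 days fewer genes on chromosome X than on the autosomes were called higher, but between 20 and 1 days the shares were close. Of the 2146 genes on chromosome X that were tested, 46.6% were called lower and 19% higher between 5 and 1 days, against 31.8% and 37.1% of the 12618 autosomal genes. The X-linked genes hsp-3 and pdi-2 were among those that fell in this interval, with the deepest falls of the 10 genes, while pek-1 and atf-6, also X-linked, rose. Between 10 and 5 days all 4 X-linked genes were called higher, where 30% of genes on X and 22.7% of autosomal genes were. Between 20 and 1 days 37.5% of genes on X were called higher and 37.1% lower, against 38.7% and 38.1% of autosomal genes. These differences between chromosomes were not tested.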

How the data were processed

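The authors mapped single-end reads of indexed TruSeq libraries with TopHat (1.4.1 per the labels) to the genome WS220 and assigned them to genes with htseq-count in mode union. The deposited values are these raw counts, unnormalized and not pooled. The use of strand is not given in the sources used here. Counts ran from 23648292 to 58499127 per library. Each column was matched to its sample by the library name in the labels. The count table holds no RPKM values, and RPKM values were computed from exon lengths of WBcel235. Coordinates are not given, as the builds differ.

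Differences between ages were tested in edgeR 4.0.16 (R 4.3.3) by its quasi-likelihood test with TMM normalization, all 4 ages in a single fit without covariates, over genes whose counts reached a sum of 100, at a Benjamini-Hochberg adjusted p of 0.01. The biological coefficient of variation was 4.14%. The script was run on simulated counts drawn from the model that edgeR assumes, with most genes unchanged. That run cannot check the model itself or the scaling on these data. Replicates of an age differed by more than sampling noise (chi-square per degree of freedom 5.05 to 19.9). Nothing says whether they were separate cultures, so that p values measure the spread between these libraries. The alternatives were library size, upper-quartile factors, DESeq2 1.42.0, other count filters, a threshold of 0.05, a replicate block, fits of 2 ages and leaving out each library. The members and lists were chosen with earlier results of these data known. All 10 members are named, with the 5 genes most like hsp-3 and the 5 most like hsp-4. Of each list, the largest rise and fall among those called between 20 and 1 days are named. The genes tag-320, T05E11.3, stc-1, abu-10 and abu-11 were added after their values were seen. So were the further genes of the list of translocation, signal peptide cleavage and N-glycosylation.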

Additional observations from a re-analysis of the deposited data

How the results depend on the processing

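Over the 10 genes and 4 comparisons of ages, 707 of 760 log2 changes under another setting kept their direction and their side of the threshold. Of the rest, 24 lost the call, 23 gained it and 6, none of them called, turned sign. The 760 overstate the stability. The threshold of 0.05 reuses the same log2 changes, so it could not turn a sign or lose a call. Fits without a library of neither age compared could hardly move the change. Without any fits that left out a library, 285 of 320 were kept. The sign turned for pdi-1 (0.0536) and pdi-2 (0.0425) between 20 and 1 days and for crt-1 between 20 and 10 days (0.0793) with library size alone, for crt-1 in that interval with upper-quartile factors (0.0044) and with at least 100 counts in every library (0.0411), and for ire-1 between 10 and 5 days with upper-quartile factors (0.0573). The number of the 10 genes called lower between 20 and 1 days, 1 with TMM, was 0 with library size alone, 2 without a count filter, and 3 with DESeq2, with at least 100 counts in every library and at a threshold of 0.05. The number called lower between 10 and 5 days, 1 in the report, was 0 with upper-quartile factors and with at least 100 counts in every library. When each library was left out in turn, the numbers called were 4 to 4 higher and 6 to 6 lower between 5 and 1 days, 6 to 7 higher and 0 to 1 lower between 10 and 5 days, 4 to 7 higher and 0 to 0 lower between 20 and 10 days, and 6 to 6 higher and 0 to 2 lower between 20 and 1 days, and all 10 genes changed with age in each case. The cause of these differences was not tested.

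Over all genes, 50.3% of the calls between 20 and 1 days were rises with TMM, against 57.4% with library size alone, and between 20 and 10 days TMM gave 4176 rises and 4173 falls, against 5218 and 2977 (63.7% rises) with library size alone. Upper-quartile factors gave 41.6% between 5 and 1 days and 61.7% between 10 and 5 days, against 50.4% and 49.0% with TMM. The labels number the replicates of every age, but same-numbered libraries did not deviate together (r of -0.114 to 0.0423 over 15 pairs). With the replicate block the counts of the 10 genes called were the same as without it in every comparison, 6 higher and 1 lower between 20 and 1 days. Of the 40 mean CPM levels of the 10 genes by age, 18 moved by more than 1 SD with TMM scaling.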
